A study of Mus musculus with 6 samples.

Results

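The genes described here are those of androgen synthesis in Leydig cells, the steroid-making cells of the testis interstitium, together with Ptgds, the gene of lipocalin-type prostaglandin D2 synthase. A list of 9 symbols was taken (Star, Cyp11a1, Cyp17a1, Hsd3b1, Hsd3b6, Hsd17b3, Insl3, Lhcgr and Ptgds), and every probe set that the platform annotation gives to exactly 1 of them was read on all 6 arrays as a check on interstitial RNA in sorted germ cells. These were 11 probe sets of 6 genes, among 45101 probe sets on the array and 18193 genes with a probe set of their own. Star and Cyp11a1 had 3 probe sets each, Ptgds had 2, and Cyp17a1, Hsd3b1 and Hsd17b3 had 1 each. Insl3 (2 probe sets) and Hsd3b6 (1 probe set) were annotated only on probe sets with several symbols, and Lhcgr had no probe set in the annotation used here, so these 3 genes have no value below. The genes were chosen on their signals on these 6 arrays and on the differences between the groups, so the levels and differences of its genes are given as a description, with standard errors and without p-values.

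The arrays measured RNA of GFP-positive elongating spermatids, the haploid germ cells that are remodelling into sperm. Testes of ICR males with the wildtype genotype were transduced at 5 weeks of age with a lentiviral vector, and the cells were sorted from total germ cells 1 week later; the labels call the mice adult. The 3 groups were shMiwi:GFP (an shRNA named for Miwi, the PIWI protein encoded by Piwil1), shCaf1:GFP (an shRNA named for Caf1, a deadenylase subunit of the CCR4-NOT complex encoded by Cnot7) and the control pSilencer:GFP vector, with 2 arrays called biological replicates in each. The number of animals behind an array is not given in the sources used here, so the spread between arrays may be partly technical.

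Leydig cells take up or make cholesterol and turn it into testosterone under luteinizing hormone. STAR brings cholesterol to the inner mitochondrial membrane, CYP11A1 cleaves its side chain to pregnenolone, and CYP17A1 and the 3-beta-hydroxysteroid dehydrogenases carry the product to androstenedione, which HSD17B3 reduces to testosterone. PTGDS makes prostaglandin D2 and is also secreted as a carrier of small lipophilic molecules; in the testis it has been described in Leydig, Sertoli and germ cells.

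The control arrays stood apart before any gene was considered. All deposited signals were scaled to a 2% trimmed mean of 500, yet the 18 hybridization control probe sets, which are added in equal amount to every array, were 82.3-fold and 16.2-fold brighter on control replicates 1 and 2 than on the shRNA arrays, whose own range was 0.806 to 1.20. The 100 brightest probe sets held 5.85% to 7.25% of the signal on the shRNA arrays, against 52.6% and 29.5% on the control arrays. Replicates correlated at r = 0.982 in shMiwi and 0.983 in shCaf1 over the 27022 tested probe sets, against 0.451 in control. Of 12 markers of elongating spermatids such as protamines, the median percentile was 99.0 to 99.6 on the shRNA arrays, against 37.1 on control replicate 1 and 99.4 on control replicate 2. Each of the 12 stood lower on control replicate 1 than on every other array. Prm1 was the highest of them there at 96.1, and the cause was not tested. Piwil1 was lower in shMiwi than in shCaf1 by a log2 difference of -1.14 (limma adjusted p = 0.00105), whereas Cnot7 did not pass that test (0.24, limma adjusted p = 0.307). Against control, both genes were lower in both shRNA groups. Piwil1 differed by -6.01 in shMiwi and -4.87 in shCaf1 (limma adjusted p = 0.00675 and 0.0111). Cnot7 differed by -7.03 and -7.27 in that order (limma adjusted p = 0.00854 and 0.00886). With the arrays scaled on the hybridization controls, these were -0.62 and 0.12 for Piwil1 and -1.65 and -2.28 for Cnot7. Piwil1 had signals of 9780 and 10392 in shMiwi and 21881 and 22442.5 in shCaf1, against 1445360 and 292542 in control. Cnot7 had 4365 and 5012 in shMiwi and 3633 and 4330 in shCaf1. Its control signal was 188877 on replicate 2 and higher still on replicate 1. On control replicate 1 both genes were thus far brighter than Prm1, at 2190.6. The cause of these differences from control, the shRNAs included, was not tested. Results against control are therefore given with each array's value for the described genes, whereas for many genes of other lists only the difference is given. The comparison of shMiwi with shCaf1, which uses only the 4 shRNA arrays, is given separately.

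On the shRNA arrays Cyp17a1, Cyp11a1 and Hsd3b1 were among the brightest genes of the sorted cells, and Star and Hsd17b3 were less bright. Percentiles within an array, which do not depend on its scale, were taken over all probe sets other than the Affymetrix controls, with each gene's brightest probe set on average. All 6 genes lay at or above the 60th percentile on each of the 4 shRNA arrays, against 3 on control replicate 1 and 5 on control replicate 2. At or above the 90th percentile were 4 genes on each shRNA array (Cyp17a1, Cyp11a1, Hsd3b1 and Ptgds), against 1 and 3 genes on the control arrays. The summed signal of the 6 genes, 1 probe set per gene, was 27331 and 27064 in shMiwi and 35694 and 38162 in shCaf1, against 5021 and 13310 in control. Ptgds alone had 2873 and 3149 in shMiwi and 15416 and 17649 in shCaf1, so the higher sum in shCaf1 came from Ptgds. Of the Leydig genes, Cyp17a1, Cyp11a1 and Star had lower signals on both shCaf1 arrays than on both shMiwi arrays. Hsd17b3 was higher there, and Hsd3b1 overlapped. The Star percentiles overlapped too, at 80.95 and 80.80 in shMiwi and 80.54 and 81.05 in shCaf1. Nothing is read from this order, because the share of all probe sets without overlap is not given. In such bulk RNA, fewer cells of a type and less RNA per cell cannot be told apart.

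**Figure D1:**
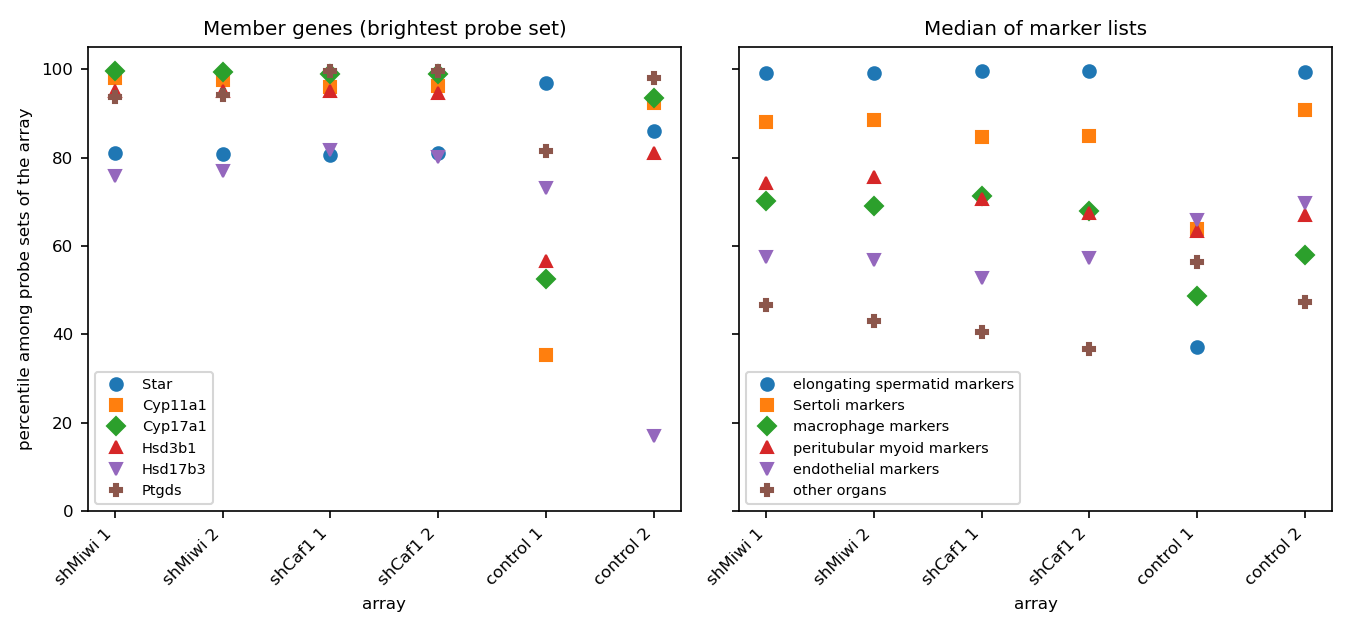
Percentile of each gene's brightest probe set among the probe sets of the same array (left), and median percentile of marker lists of other cell types (right), on the 6 arrays in the order shMiwi, shCaf1, control. The 6 genes sit above 75 on every shRNA array, whereas on control replicate 1 Cyp11a1 is at 35.3 and on control replicate 2 Hsd17b3 is at 16.9.

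Star, the cholesterol carrier, was read by 3 probe sets that did not tell the same story against control. Probe set 1418729_at had signals of 769.95 and 733 in shMiwi and 703 and 712 in shCaf1, against 2556 and 905 in control. It was thus lower on all 4 shRNA arrays than on both control arrays, at 0.498 times the control geometric mean of signal plus 16 in shMiwi and 0.470 times in shCaf1, with an SE of 0.56 on the log2 scale for each. Probe set 1418728_at had 662 and 744 in shMiwi and 745 and 737 in shCaf1, against 26.8 and 14.7 in control. Here the shRNA arrays were all higher, by log2 differences of 4.31 and 4.38 (SE 0.35 each), but the control signals lay at percentiles of 4.46 and 4.70 of their arrays. So dim a control gives no exact fold: the differences were 5.07 and 5.15 with an added constant of 1, and 3.18 and 3.25 with 64. The remaining Star probe set, 1449201_at, had 362 and 441 in shMiwi and 231 and 275 in shCaf1, against 699 and 57.4 in control, so the control arrays enclosed all the others. All 3 probe sets are annotated to the same Star transcript record, and which of them measures Star on the control arrays was not tested.

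Cyp11a1, the side-chain cleavage enzyme that starts steroid synthesis, was bright on 1 probe set and dim on the others. Probe set 1448804_at had 6763 and 6336 in shMiwi and 4445 and 4766 in shCaf1, against 148 and 1726 in control. The shRNA arrays did not overlap the control arrays, and the log2 differences were 3.62 for shMiwi and 3.11 for shCaf1 (SE 1.11 each). The dim probe set 1439947_at had 70.3 and 74.4 in shMiwi and 76.3 and 49.9 in shCaf1, against 143 and 268 in control, the opposite order. Probe set 1457604_x_at had 5.54 and 21.2 in shMiwi and 6.96 and 2.52 in shCaf1, against 35.1 and 43.8 in control, and was the only one of the 11 to miss the filter on dim probe sets. The filter kept mean log2 signals above 6.55. Probe set 1439947_at lay just inside at 6.83 and 1457604_x_at outside at 4.99. The former passed only through the control arrays, with means of 7.73 there, 6.46 in shMiwi and 6.29 in shCaf1. Star probe set 1418728_at, at 5.18 in control, passed only through the shRNA arrays.

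Cyp17a1, the 17-hydroxylase and lyase that commits steroids to androgens, had the highest percentiles of the Leydig enzymes on the 4 shRNA arrays and on control replicate 2, but not on control replicate 1, where Hsd17b3 (73.1) and Hsd3b1 (56.5) stood higher. Its signal was 12922 and 12596 in shMiwi and 10816 and 10956 in shCaf1, against 339.9 and 2120.05 in control. The shRNA arrays all lay above both control arrays, with log2 differences of 3.87 for shMiwi and 3.64 for shCaf1 (SE 0.88 each). Within their arrays these signals stood at percentiles of 99.5 and 99.5 in shMiwi and 99.0 and 98.8 in shCaf1, against 52.4 and 93.5 in control. The gene lies on mouse chromosome 19, at chr19:46667165-46673000 in GRCm38.p6.

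Hsd3b1, a 3-beta-hydroxysteroid dehydrogenase of gonad and adrenal, had 3499 and 3721 in shMiwi and 3535 and 3418 in shCaf1, against 400.2 and 661 in control. The shRNA values lay close together and above both control values, with log2 differences of 2.77 and 2.72 (SE 0.40 each). Mouse Hsd3b genes are close copies of one another, and how far this probe set also reads the others was not tested here. Hsd17b3, the last enzyme of testosterone synthesis, had 504 and 529.7 in shMiwi and 779.7 and 660.2 in shCaf1, against 686 and 38.8 in control. Its control arrays lay on both sides of the shMiwi arrays and reached into the shCaf1 range, and the log2 differences of 1.44 and 1.90 were near their SE of 1.18.

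**Figure D2:**
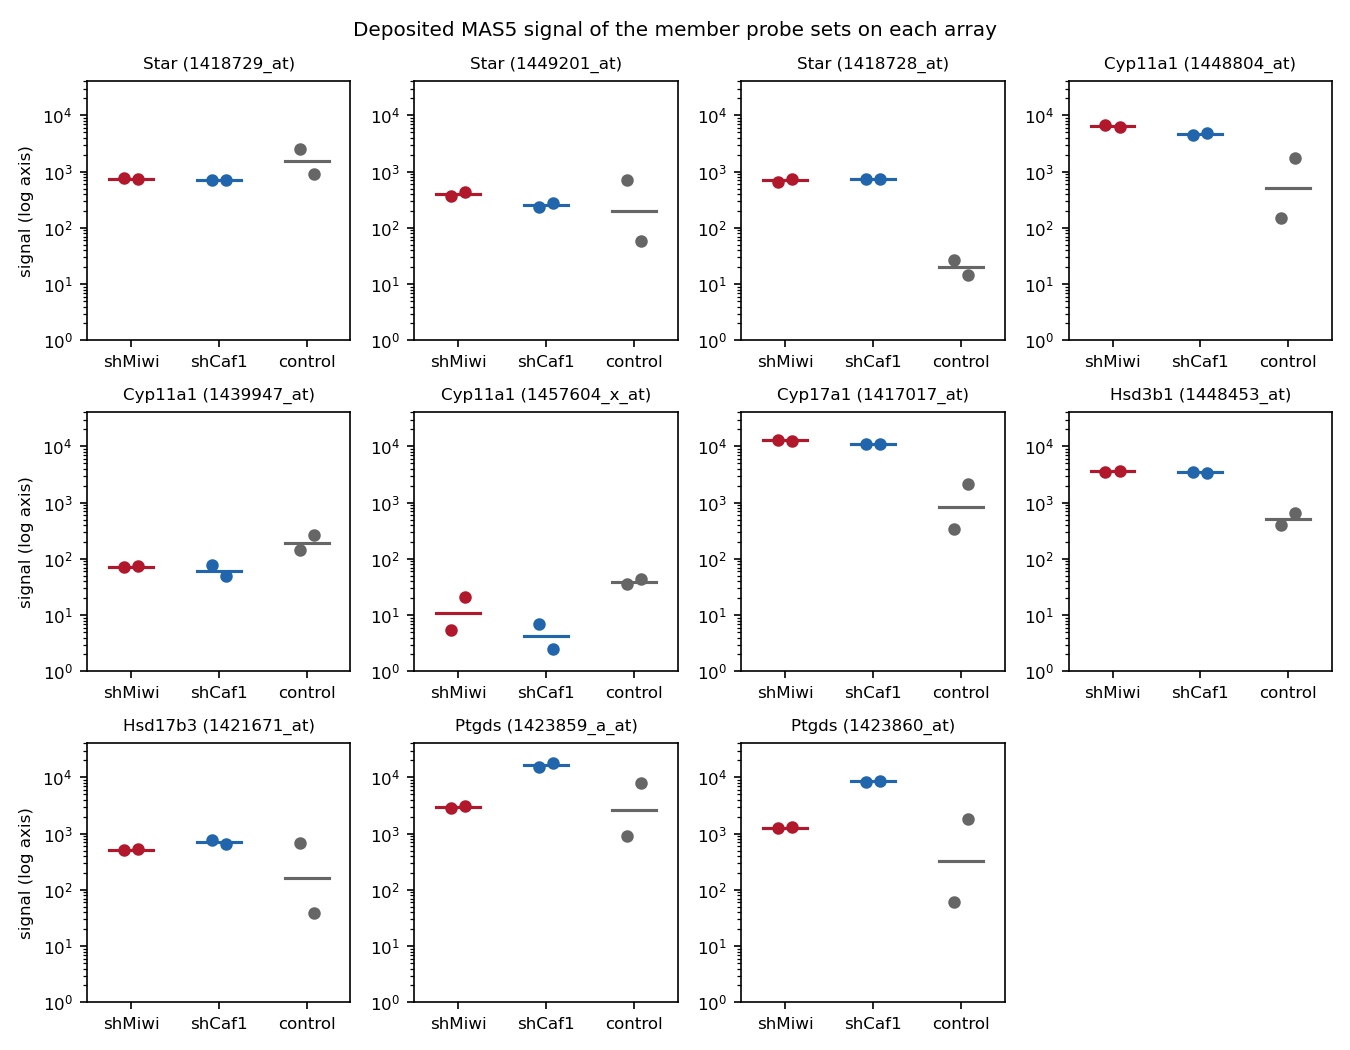
Deposited MAS5 signal (log axis) of each of the 11 probe sets on the 2 arrays of shMiwi, shCaf1 and control; points are arrays and short lines geometric means. The shRNA arrays lie close together within each group for the bright probe sets, whereas the control arrays lie far apart, as for Cyp17a1 at 339.9 and 2120.05.

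Ptgds differed from the steroid enzymes in how it varied among the shRNA arrays. Probe set 1423859_a_at had 2873 and 3149 in shMiwi and 15416 and 17649 in shCaf1, against 891 and 7858 in control. Both shCaf1 arrays lay above every other array, and the shMiwi arrays lay between the control arrays. Probe set 1423860_at gave the same order, with 1236 and 1295 in shMiwi and 8409 and 8653 in shCaf1, against 61.5 and 1788 in control. Against control the log2 differences were 0.18 and 1.78 for shMiwi and 2.63 and 4.51 for shCaf1, in the order of the probe sets above (SE 1.03 and 1.44). Ptgds stood at percentiles of 93.7 and 94.2 in shMiwi and 99.6 and 99.6 in shCaf1 on the first probe set, against 81.4 and 97.9 in control. Without control replicate 1, the shMiwi differences from control were -1.38 and -0.49, so their direction rested on that array.

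Between the shRNA groups, Ptgds was the gene of the list with the largest difference. It was lower in shMiwi than in shCaf1 by log2 differences of -2.45 (SE 0.11) and -2.74 (SE 0.11), that is 5.46-fold and 6.67-fold higher in shCaf1. These differences ranked 20 and 12 from the lowest among the 27022 tested probe sets. Only 27 tested probe sets, or 0.0999%, were at least 4-fold lower in shMiwi with no overlap of the arrays, and 4 (0.0148%) were at least 4-fold higher. When the 4 arrays were scaled on the hybridization controls, which moved the median difference of all tested probe sets to 0.38 from 0.02, the Ptgds differences were -2.05 and -2.34. The SD of the replicates on the log2 scale was 0.09 in shMiwi and 0.14 in shCaf1 for 1423859_a_at, and 0.05 in shMiwi and 0.03 in shCaf1 for 1423860_at (n = 2 each).

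The steroid genes differed less between the shRNA groups. Cyp11a1 (1448804_at) was higher in shMiwi than in shCaf1 by a log2 difference of 0.51 (SE 0.11), with no overlap of the arrays. Cyp17a1 differed by 0.23 (SE 0.09) and Hsd3b1 by 0.05 (SE 0.11). Hsd17b3 differed by -0.46 (SE 0.16), a difference that was -0.07 on the hybridization control scale. The Star probe sets differed by 0.08 (1418729_at), 0.63 (1449201_at) and -0.08 (1418728_at), with SE of 0.14, 0.19 and 0.15; the last of these was 0.31 on the hybridization control scale. Thus the steroid genes spanned -0.46 to 0.63, against -2.74 and -2.45 for Ptgds, and on both scales both Ptgds probe sets were the lowest.

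**Figure D3:**
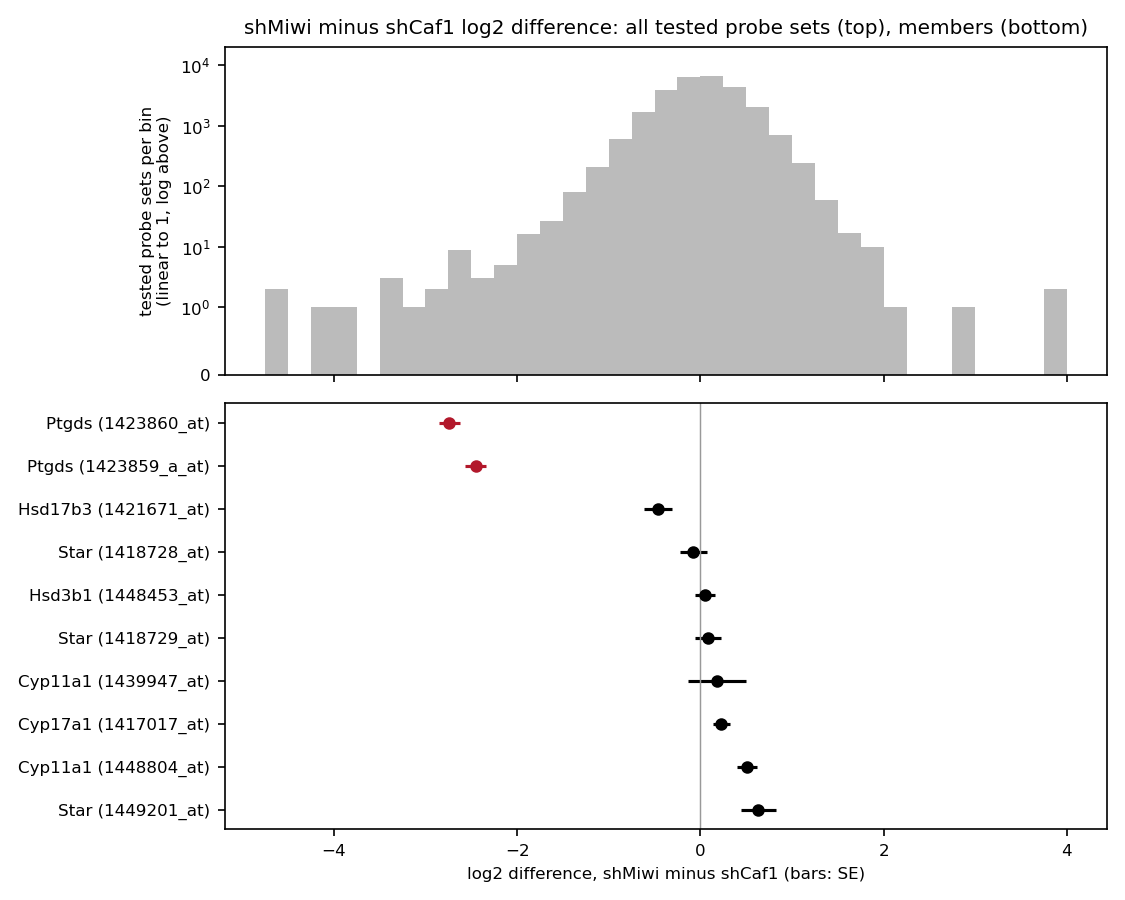
Log2 difference of shMiwi minus shCaf1 over the 4 shRNA arrays, as a histogram of all 27022 tested probe sets (top; the count axis is linear to 1 and logarithmic above) and for the 10 tested probe sets of the described genes (bottom; points with SE). Both Ptgds probe sets lie in the far lower tail at -2.74 and -2.45, and the others lie between -0.46 and 0.63.

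The counts of probe sets called at an adjusted p below 0.05 were set against the background of the same comparison, and nothing is read from them because these contrasts were in view when the genes were chosen. In shMiwi against control, 4 of the 10 tested probe sets were called higher and 0 lower by limma (4 and 1 at an unadjusted p below 0.05), where 43.2% of all tested probe sets were called, 16.9% higher and 26.4% lower. In shCaf1 against control, 3 were called higher and 0 lower (6 and 1 unadjusted), where 41.5% of all were called, 15.5% higher and 26% lower. In shMiwi against shCaf1, 1 was called higher (Cyp11a1) and 2 lower (both of Ptgds), where 7.33% of all were called, 3.81% higher and 3.52% lower. Both comparisons with control use the same 2 control arrays. The median log2 difference of the 10 tested probe sets was 1.61 in shMiwi against control, where that of all tested probe sets was -0.20. It was 2.67 in shCaf1 against control (all, -0.25) and 0.07 in shMiwi against shCaf1 (all, 0.02).

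The scale decides how these differences from control are to be read. On the hybridization control scale the median of all tested probe sets moved to 3.58 in shMiwi and 3.15 in shCaf1 against control, and all 10 tested probe sets of the described genes then lay above control and were called higher, including those of Star and Cyp11a1 that were lower on the deposited scale. Calls over all probe sets were 4559 higher and 7128 lower in shMiwi against control on the deposited scale, 5801 and 5858 after median centring, and 24432 and 26 (90.4% and 0.0962% of those tested, 90.5% in all) on the hybridization control scale. For shCaf1 against control they were 4186 higher and 7019 lower, 5653 and 5459 after median centring, and 23669 and 10 (87.6% and 0.037%, 87.6% in all) on the hybridization control scale. For shMiwi against shCaf1 they were 1030 higher and 951 lower, 577 and 1097 after median centring, and 6887 and 258 (25.5% and 0.955%) on the hybridization control scale. Replicates of the 10 probe sets differed by a median of 0.08 log2 in shMiwi and 0.07 in shCaf1, against 2.85 in control, where the medians over all tested probe sets were 0.22, 0.19 and 1.28.

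Stretches upstream of a start of Ptgds and of Cyp11a1, which differed in opposite directions between the shRNA groups, are shown because each holds a match to a motif of steroidogenic genes. NR5A1 (SF-1), the nuclear receptor that governs steroidogenic genes, is known to bind sites that hold AGGTCA or AGGCCA. RefSeq (GRCm38.p6) windows of 250 bases before the start were found for 7 of the 9 listed genes, 8 windows in all. Both windows are given 5′ to 3′ on the gene's strand, with the matched letters in capitals.
Ptgds, chr2:25469750-25469999, minus strand: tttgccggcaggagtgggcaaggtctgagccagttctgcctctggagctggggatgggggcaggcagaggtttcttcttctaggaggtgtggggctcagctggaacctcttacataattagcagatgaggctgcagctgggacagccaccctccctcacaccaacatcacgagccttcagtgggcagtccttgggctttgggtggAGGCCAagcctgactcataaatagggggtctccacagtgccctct
Cyp11a1, chr9:58014702-58014951, plus strand: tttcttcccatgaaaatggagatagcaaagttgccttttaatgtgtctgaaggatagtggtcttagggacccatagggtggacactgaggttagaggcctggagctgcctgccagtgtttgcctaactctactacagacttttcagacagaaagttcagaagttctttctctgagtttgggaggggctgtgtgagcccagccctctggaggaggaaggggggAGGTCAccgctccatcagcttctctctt
The Ptgds window holds AGGCCA, whose first base is 45 bases before the start, and the Cyp11a1 window holds AGGTCA 28 bases before its start. The Ptgds start used here and its whole window lie inside the annotated gene, chr2:25466709-25470110. This Cyp11a1 start also lies inside its annotated gene, chr9:57998024-58027031. The window before the outer start of Cyp11a1, chr9:57997774-57998023, holds neither motif on either strand. On either strand, AGGTCA was present in 14.0% and AGGCCA in 18.8% of all 32851 such windows, and each was present in 2 of the 8 windows of the listed genes. A match of these letters is a description and not a binding site.

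Partners and regulators of steroid synthesis were read next. Of 20 genes listed, 13 were tested. In shMiwi against control 2 rose and 1 fell, and in shCaf1 against control 2 rose and 1 fell, by limma at an adjusted p below 0.05, whereas all 13 lay above control in both comparisons on the hybridization control scale. Sult1e1, which inactivates oestrogens by sulphation and is known in Leydig cells, rose by 4.24 (SE 0.36, limma adjusted p = 0.00397) in shMiwi and by 4.65 (SE 0.36, limma adjusted p = 0.0047) in shCaf1 against control. Its signals were 662 and 784 in shMiwi and 1026 and 904 in shCaf1, against 30.7 and 16.3 in control, where they stood at percentiles of 6.06 and 5.60. Sult1e1 passed the filter on dim probe sets only through the shRNA arrays. With so dim a control the size of the difference is set by the added constant: it was 4.94 and 5.36 with a constant of 1, and 3.17 and 3.56 with 64. The transcription factor gene Gata6 rose by 2.32 and 1.77 against control (limma adjusted p = 0.00871 and 0.0183), whereas Gata4 had differences of -2.05 and -2.22 (limma adjusted p = 0.0321 and 0.0266) that became 2.61 and 2.08 on the hybridization control scale. Fdx1, the ferredoxin that supplies electrons to CYP11A1, had 8287 and 8613 in shMiwi and 6824 and 7108 in shCaf1, against 47.3 and 5828.5 in control, and its difference passed in neither comparison.

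Between the shRNA groups, 0 of these 13 genes rose and 1 fell (3 and 3 at an unadjusted p below 0.05). The gene that fell was Lipe, hormone-sensitive lipase, which frees cholesterol from its esters and also has a testis form in spermatids. It had 927 and 637 in shMiwi, against 2877 and 2835 in shCaf1, a log2 difference of -1.87 (SE 0.18, limma adjusted p = 0.00172), which was -1.48 on the hybridization control scale. The other Lipe probe set fell by 1.24 (SE 0.26, limma adjusted p = 0.0304). The median difference over the 13 genes was 0.13, where that of all tested probe sets was 0.02.

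Genes of cholesterol synthesis, the supply of the steroid pathway, were higher in shMiwi than in shCaf1 in 4 of 15 tested genes and lower in 1, with a median difference of 0.33. Hmgcs1, which makes the precursor of mevalonate, had 4958 and 6503 in shMiwi against 2595 and 2881 in shCaf1, a rise of 1.05 (SE 0.15, limma adjusted p = 0.00803). Its other 3 tested probe sets rose by 0.80, 0.92 and 0.87. Sc5d, a late sterol desaturase, rose by 0.81 (limma adjusted p = 0.0479), and Fdps, which makes farnesyl diphosphate, by 0.71 (limma adjusted p = 0.0407). Against control, 5 genes rose and 2 fell in shMiwi and 4 rose and 2 fell in shCaf1, although all 15 lay above control on the hybridization control scale. Idi1, an isomerase of the isoprenoid steps, rose by 5.32 and 4.77 (limma adjusted p = 0.00374 and 0.0047), and had signals of 1498 and 1491 in shMiwi and 1092 and 938 in shCaf1, against 27.9 and 16.5 in control, at percentiles of 4.95 and 5.75. Idi1 also passed the filter only through the shRNA arrays. The size of its difference too was set by the added constant, at 6.05 and 5.49 with a constant of 1 and 4.18 and 3.65 with 64. Sqle, squalene epoxidase, rose by 3.82 and 3.59 (limma adjusted p = 0.0325 and 0.0403). Hmgcs1 rose by 3.81 in shMiwi against control (limma adjusted p = 0.00984), and Cyp51, lanosterol demethylase, by 3.81 in shCaf1 against control (limma adjusted p = 0.0463).

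Of 10 other genes listed for the prostaglandin D2 pathway, 8 had a probe set of their own and 5 were tested. On the shRNA arrays the brightest of them was Hpgd, at percentiles of 76.7 and 81.5 in shMiwi and 72.9 and 72.2 in shCaf1, against 81.2 and 39.6 in control. Between the shRNA groups 2 rose in shMiwi and 0 fell (2 and 0 at an unadjusted p below 0.05 by limma), so none of the tested ones was called in the direction of Ptgds. Abcc4, a transporter that exports prostaglandins, had 255 and 250.5 in shMiwi against 148 and 87.1 in shCaf1, a rise of 1.05 (SE 0.26, limma adjusted p = 0.0445). Hpgd, which inactivates prostaglandins, had 540.4 and 777 in shMiwi against 377 and 338 in shCaf1, a rise of 0.83 (SE 0.20, limma adjusted p = 0.0412). Hpgds, the haematopoietic prostaglandin D2 synthase, had 59.96 and 27.7 in shMiwi and 27.9 and 4.27 in shCaf1, against 48.8 and 15.5 in control. Against control, the prostaglandin D2 receptor gene Ptgdr differed by -2.94 and -2.95 (limma adjusted p = 0.00711 and 0.00794) and the prostaglandin E synthase gene Ptges by -2.76 and -2.61 (limma adjusted p = 0.00592 and 0.00725), but on the hybridization control scale these were 1.59 and 1.25 for Ptgdr and 1.62 and 1.43 for Ptges.

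Adrenal enzymes were used to see whether steroid genes that the mouse testis uses little shared the pattern. Of 4 such genes 1 was tested. Cyp21a1, the adrenal 21-hydroxylase, had 102 and 103 in shMiwi and 181 and 180.3 in shCaf1, against 2507 and 2064 in control. Its differences from control were -4.27 and -3.54 (limma adjusted p = 0.00374 and 0.00503), the opposite of Cyp17a1 on the same scale, and 0.71 and 1.09 on the hybridization control scale.

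Markers of other testis cells were read on the same arrays. The summed signal of 12 Sertoli cell markers was 65594 and 61727 in shMiwi and 65440 and 64691 in shCaf1, against 7402 and 46852 in control. That of 11 macrophage markers was 8190 and 7994 in shMiwi and 7906 and 7388 in shCaf1, against 4158 and 5053 in control. That of 6 peritubular myoid markers was 6898 and 6316 in shMiwi and 6845 and 6805 in shCaf1, against 4784 and 10014 in control. These sums rest mostly on the brightest markers, since the markers of each list ranged widely on the shRNA arrays. The lowest marker stood at percentiles of 11.9 to 42.7 for Sertoli, 32.7 to 49.0 for macrophage and 23.8 to 55.4 for myoid lists. The highest stood at 99.9, 91.5 to 92.9 and 94.2 to 95.7 in that order. That of 8 endothelial markers was 1093 and 949 in shMiwi and 896 and 965 in shCaf1, against 7559 and 3210 in control. On the shRNA arrays no endothelial marker exceeded the percentile of 67.2, which is below the brightest of the other-organ genes given next. On the shMiwi arrays the highest endothelial marker, at 66.1 and 64.6, stood above all but that gene. None of the marker genes was listed at 0 on any array. Genes of other organs, such as insulin and surfactant genes, set a level for RNA not known in testis: the median percentile of 13 of them was 46.7 and 43.1 in shMiwi and 40.6 and 36.7 in shCaf1, against 56.4 and 47.3 in control. Their highest percentile was 83.9 and 82.1 in shMiwi and 83.0 and 84.8 in shCaf1, all of Myh6, a heart myosin, which was above Star and Hsd17b3 on each of these arrays. The next of them, Apoa2, stood at 62.3 and 59.3 in shMiwi and 69.7 and 68.1 in shCaf1. Star and Hsd17b3 thus lay below Myh6 but above every other of these genes on each shRNA array. Cyp17a1, Cyp11a1, Hsd3b1 and Ptgds lay above all of them. The share of these cell types in the levels of the Leydig genes was not tested.

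The markers named here differed by less than Ptgds between the shRNA groups. Of 12 Sertoli markers 2 rose in shMiwi and 0 fell, namely Wt1 (0.77, limma adjusted p = 0.0183) and Inha (0.59, limma adjusted p = 0.0196). Of 10 tested macrophage markers 1 rose, Mrc1 (0.69, limma adjusted p = 0.0197), and 0 fell. Of 6 peritubular myoid markers 2 rose, Myh11 (0.93, limma adjusted p = 0.0182) and Tagln (0.90, limma adjusted p = 0.0266), and 1 fell, Actg2 (-0.81, limma adjusted p = 0.00961). Of 6 tested endothelial markers 0 rose and 0 fell by limma, and of 7 genes of other organs 0 rose and 0 fell (0 and 0, and 0 and 1, at an unadjusted p below 0.05). Elongating spermatid markers moved in the direction of Ptgds: 9 of 12 fell in shMiwi against shCaf1 and 0 rose, with a median difference of -0.64, while 3 of the 12 lay above 0 on the hybridization control scale. The largest of these falls were those of Oaz3 (-1.01, limma adjusted p = 0.00188), Akap4 (-0.98, limma adjusted p = 0.00297) and Gapdhs (-0.87, limma adjusted p = 0.00721). Their summed signal was 143059 and 130918 in shMiwi, against 199471 and 213042 in shCaf1, and its part in the Ptgds difference was not tested. With all 6 arrays in 1 fit, 0 probe sets were called between the shRNA groups by limma (264 at an unadjusted p below 0.05). The calls of Lipe, Hmgcs1, Oaz3, Akap4 and Gapdhs held with each of the 4 arrays left out in turn, whereas those of Sc5d, Fdps, Abcc4, Hpgd, Wt1, Inha, Mrc1, Myh11, Tagln and Actg2 were lost without shCaf1 replicate 2. Without the intensity trend in eBayes, 15 probe sets were called in all, and the calls of all these genes, of Piwil1 and of Cyp11a1 were lost. Both Ptgds probe sets were among the 15, which is no support, because Ptgds was chosen with this difference in view.

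**Figure D4:**
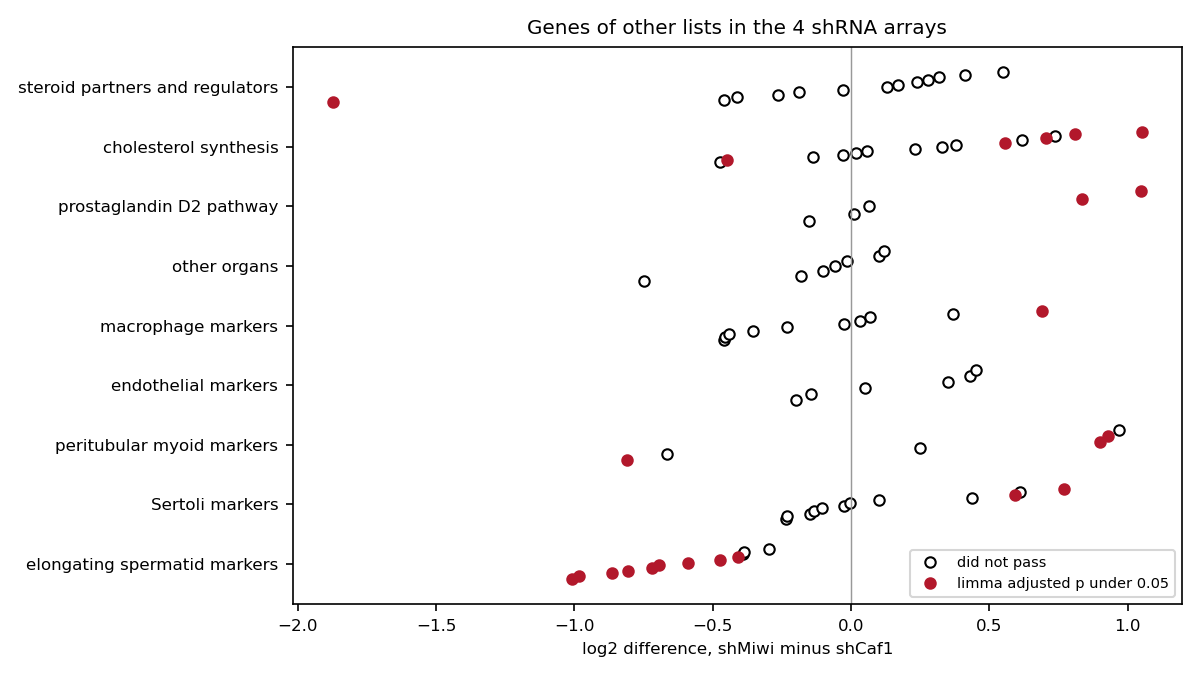
Log2 difference of shMiwi minus shCaf1 for each tested gene of the other lists, 1 row per list, filled where the limma adjusted p was below 0.05; the adrenal enzymes are not drawn. Lipe lies farthest to the left at -1.87, and 9 of the 12 elongating spermatid markers are filled on the left of 0.

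Against control, the marker lists of other cells divided. In shMiwi, 3 Sertoli markers rose and 2 fell, with Ctsl at 3.71 and Amh at -5.05 (limma adjusted p = 0.0149 and 0.0066), and in shCaf1 2 rose and 2 fell, with Ctsl at 3.71 and Amh at -5.66 (limma adjusted p = 0.0157 and 0.00642); 11 of the 12 lay above control on the hybridization control scale in both. Of macrophage markers 4 rose and 2 fell in shMiwi and 3 rose and 1 fell in shCaf1, and all 10 tested lay above control on the hybridization control scale. C1qa rose by 2.70 and 2.94 (limma adjusted p = 0.00632 and 0.00641) and Mrc1 by 3.23 and 2.54 (limma adjusted p = 0.00704 and 0.0126). Cd74 fell in both, with differences of -2.49 and -2.05 (limma adjusted p = 0.00673 and 0.0107), and Cd163 had -2.08 in shMiwi (limma adjusted p = 0.0451) and -1.73 in shCaf1 (limma adjusted p = 0.0776). Endothelial markers fell in 3 genes in shMiwi and 4 in shCaf1 of 6 tested, and 0 rose by limma (0 at an unadjusted p below 0.05 as well). Genes of other organs fell in 4 of 7 in shMiwi and 3 of 7 in shCaf1, and 0 rose (1 each unadjusted). All 6 endothelial and all 7 other-organ genes tested lay above control on the hybridization control scale. Of 6 peritubular myoid markers 2 rose and 1 fell in shMiwi, and 1 rose and 1 fell in shCaf1. Myh11 rose by 2.87 and 1.94 (limma adjusted p = 0.0105 and 0.0323), and Des had -2.95 and -2.29 (limma adjusted p = 0.0132 and 0.0281). Of 12 elongating spermatid markers, 0 were called in shMiwi (1 unadjusted), and Akap4 alone was called in shCaf1 (4.74, limma adjusted p = 0.0386). All markers of both lists lay above control on the hybridization control scale. Without either array of an shRNA group, 0 of all tested probe sets were called by limma in its comparison with control, where 8750 to 9650 passed an unadjusted p below 0.05.

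The genes whose log2 signal ran most like that of Ptgds over the 6 arrays were found by Pearson's r among 14297 other genes. They were Ube2k (r = 0.996), Jag1 (0.987), Ryr3 (0.985), Slc66a2 (0.981) and Elp3 (0.973), and 20 genes in all exceeded 0.95. For Cyp17a1, 1456 genes exceeded 0.95, led by Tmx1, Nek2, Parp12, Btbd10 and Itm2b. These values describe 6 arrays that fall into control and shRNA arrays and share their scale, and they carry no p-value.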

How the data were processed

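Total RNA was hybridized to Affymetrix mouse 3' arrays. The authors' deposited table holds 1 linear MAS5 signal intensity per probe set and array, per the submitters' processing notes, and the values show a trimmed mean of 500 (2% trimmed). Version and build are not given in the sources used here. Neither scanner files nor detection calls were used. Titles gave the groups.

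Here log2(signal + 16) was used, which understates fold changes of dim probe sets. Leaving out 64 Affymetrix controls, probe sets were kept whose mean log2 exceeded the 40th percentile (27022 of 45037, 14298 genes). The annotation gave 34945 probe sets 1 symbol, 932 several and 9160 none; 99.4% of the first matched RefSeq (GRCm38.p6) by gene identifier. The probe set of highest mean stood for a listed gene. limma 3.58.1 in R 4.3.3 (lmFit, eBayes with trend) compared groups with Benjamini-Hochberg adjustment: shRNA against control over 6 arrays (3 residual degrees of freedom), shMiwi against shCaf1 over 4 (2 residual). The fits were tested on simulated data. Array number limits the precision.

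Genes and lists were chosen with earlier results of these data known. Named were the listed genes, Piwil1, Cnot7, up to 3 called genes per list and comparison with the largest differences, and 5 genes most like Ptgds and Cyp17a1. Fdx1, Hpgds, Cd163, Myh6, Apoa2 and Prm1 were added after their values were seen. Added constants, filters, scalings, variance models, thresholds, a replicate block and single-array omissions were alternatives.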

Additional observations from a re-analysis of the deposited data

Results flagged for a closer look

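Each of the following differed between shMiwi and shCaf1, the same vector system against the same control, in the limma test of the difference itself over the 4 shRNA arrays, given as shMiwi minus shCaf1 on the log2 scale. Among the described genes these were both Ptgds probe sets (-2.45 and -2.74) and Cyp11a1 (0.51), whose test is no support because they were chosen with these values in view. Among genes of steroid and cholesterol supply they were Lipe (-1.87), Hmgcs1 (1.05), Sc5d (0.81) and Fdps (0.71). In prostaglandin handling they were Abcc4 (1.05) and Hpgd (0.83). Among markers of other testis cells they were Mrc1 (0.69), Myh11 (0.93), Tagln (0.90), Actg2 (-0.81), Wt1 (0.77) and Inha (0.59). Among spermatid genes they were Oaz3 (-1.01), Akap4 (-0.98), Gapdhs (-0.87) and Piwil1 (-1.14), the gene the shMiwi vector is named for.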

How the results depend on the processing

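Of the tested probe sets of the described genes, 4 were called in shMiwi against control and 3 in shCaf1 against control; with hybridization control scaling both counts were 10, and with single arrays left out both ranged from 0 to 9. Leaving out control replicate 1 or 2 gave 9 and 8 for shMiwi and 9 and 9 for shCaf1, where 79.7% and 84% and 78.5% and 83.9% of all tested probe sets were called, and leaving out either array of the shRNA group gave 0 in that group's comparison (3 unadjusted), and leaving out either array of the other shRNA group gave 2. In shMiwi against shCaf1, 3 were called, against 5 with hybridization control scaling, 5 with the replicate block and 0 with all 6 arrays in the fit (0 unadjusted; 264 of all probe sets unadjusted), and 2 to 4 with single arrays left out; the lowest-mean probe sets and other thresholds kept the 32 gene-by-array levels at or above the 60th percentile between 24 and 34. Same-numbered arrays shared only a number (deviations correlated at 0.06, 0.00396 and 0.18), and the replicate block gave 5458 calls in all, against 1981 without it. Calls over all probe sets in shMiwi against shCaf1 were also 568 with no filter, 7145 with hybridization control scaling, 15 without the trend (which ended the calls of 16 of the other named genes and of Cyp11a1), 0 with all 6 arrays, and 276 to 3878 with single arrays left out. In shMiwi against control they were 11687, against 18076 with no filter, 6793 with the 60th percentile filter, 24458 with hybridization control scaling and 0 to 22700 with single arrays left out; in shCaf1 against control 11205, against 17244, 6448, 23679 and 0 to 22675. Of the genes that the naming rule took in each comparison, these called differences changed sign with hybridization control scaling. In shMiwi against control they were Gata4 2.61, Ptgdr 1.59, Ptges 1.62, Cyp21a1 0.71, Ins2 1.15, Sftpc 1.38, Slc17a7 1.08, Cd74 1.97, Eng 1.95, Kdr 1.88, Esam 2.70 and Des 1.79. In shCaf1 against control they were Gata4 2.08, Ptgdr 1.25, Ptges 1.43, Cyp21a1 1.09, Ins2 0.69, Sftpc 1.06, Slc17a7 0.98, Eng 1.73, Kdr 1.73, Esam 1.91, Des 2.10 and Piwil1 0.12. Called genes outside that rule changed sign too, such as Cd163 in shMiwi (1.71) and Cd74 in shCaf1 (2.06) against control. Hybridization control scaling multiplies each array by 1 factor. The cause of the other changes was not tested. Of the other values of the genes taken by the rule, 1124 kept direction and side of the threshold, 250 lost and 35 gained the call, and 13 moved. Signal over background limits the dim probe sets of Cyp11a1 and, on the control arrays, Star (1418728_at), Sult1e1 and Idi1. It also limits Amh on the shRNA arrays.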
